A study of Mus musculus with 6 samples.

Results

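Interferon-induced membrane proteins of the cell's own antiviral defence were followed in TCMK1 cells, a mouse renal tubular epithelial line, after YOD1 overexpression. The genes, 7 of the 28789 in the deposited table, were Ifitm1, Ifitm2, Ifitm3, Ifitm10, Bst2, Ifi27 and Ifi27l2a, matched by gene name. They were chosen by their measured values, because Ifitm3, Ifi27 and Bst2 stood higher in all YOD1 libraries. The comparison of YOD1 with control libraries is therefore given for them as a description, and a call among them supports nothing.

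There were 3 libraries of TCMK1 cells with YOD1 overexpression and Ang II, called YOD1 libraries, and 3 of TCMK1 cells with Ang II and the genotype label control. Angiotensin II was thus present in all 6 libraries, so its own effect was not measured. YOD1 is a deubiquitinase of the OTU family; neither the way it was introduced nor the vector of the control cells, if any, is described in the labels. The labels do not say whether replicates were separate cultures, and p-values then measure only the spread between these libraries. Poly(A) RNA was sequenced in paired ends, and the authors deposited FPKM, fragments scaled to transcript length and to the mapped fragments of a library. RNA came from whole cultures, so fewer expressing cells and less RNA per cell cannot be told apart.

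As background, IFITM proteins are small transmembrane proteins that hinder the fusion of enveloped viruses with the cell's membranes; IFITM3 acts mainly at endosomes and lysosomes, and IFITM1 mainly at the cell surface. BST2, also called tetherin, carries a transmembrane anchor at one end and a lipid (GPI) anchor at the other, and holds newly budded virions on the cell that made them. Ifi27 and Ifi27l2a encode small hydrophobic proteins of the ISG12 family, which are found on intracellular membranes. Interferons switch on many such genes through sequence elements near the gene start, the interferon-stimulated response element (ISRE) and the gamma-activated site (GAS).

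Promoter sequences were available for 5 of the 7 genes, Ifitm1, Ifitm2, Ifitm3, Ifitm10 and Bst2, in RefSeq windows that ran from 250 bases before to 50 bases after the start of the gene. A stretch from -150 to 30 is shown for 4 of them, because of the genes with a window the groups did not overlap for Ifitm3 and Bst2, while they overlapped for Ifitm2 and Ifitm1, relatives of Ifitm3. Capitals mark matches to GAAANNGAAA, an ISRE-like motif searched on both strands. In GRCm38.p6 the stretches lie at chr7:141010715-141010894 (minus strand), chr8:71537443-71537622 (minus strand), chr7:140955932-140956111 (minus strand) and chr7:140967926-140968105 (plus strand).
Ifitm3: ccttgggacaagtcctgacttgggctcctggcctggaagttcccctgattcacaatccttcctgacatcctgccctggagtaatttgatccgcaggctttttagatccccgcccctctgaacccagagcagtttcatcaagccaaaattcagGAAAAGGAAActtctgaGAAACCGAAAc
Bst2: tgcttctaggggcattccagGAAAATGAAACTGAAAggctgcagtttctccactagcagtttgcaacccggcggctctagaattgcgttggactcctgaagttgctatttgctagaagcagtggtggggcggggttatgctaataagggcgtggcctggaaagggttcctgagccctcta
Ifitm2: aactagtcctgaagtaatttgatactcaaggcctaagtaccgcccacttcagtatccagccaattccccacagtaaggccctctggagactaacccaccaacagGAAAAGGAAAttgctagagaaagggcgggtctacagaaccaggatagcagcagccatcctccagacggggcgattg
Ifitm1: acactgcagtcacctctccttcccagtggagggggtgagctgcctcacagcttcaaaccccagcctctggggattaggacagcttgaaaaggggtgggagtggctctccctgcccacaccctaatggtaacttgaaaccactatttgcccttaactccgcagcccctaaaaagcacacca

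The Ifitm3 window held 2 separate ISRE-like matches, both just after the start, at bases 3 to 12 and 20 to 29. Bst2 also held 2, which overlap each other, at -130 to -121 and -124 to -115. In Ifitm2 there was 1 match, at -46 to -37, and the windows of Ifitm1 and Ifitm10 (3 windows for 3 starts) held none. Over all 32851 promoter windows of the table, 3.44% held at least 1 such match and 0.225% held at least 2. Among the tested genes with a window, defined below, 276 of 8313 (3.32%) had a match. A GAS-like motif, TTCNNNGAA, which reads the same on both strands, matched once in Ifitm3 at bases 14 to 22, where it overlaps the second ISRE-like match, and once in Bst2 at -136 to -128, overlapping the first ISRE-like match. It was found in 8.30% of all windows, and in none of those of Ifitm2, Ifitm1 and Ifitm10. The longest run of letters that the windows of Ifitm3 and Ifitm2 share, caggaaaaggaaa, has 13 bases and contains an ISRE-like match of each gene. It spans the start in Ifitm3, from base -1 to base 12, and lies upstream in Ifitm2, from -49 to -37. A match is a run of letters and not a measured binding site, and no binding was measured in these libraries.

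**Figure D1:**
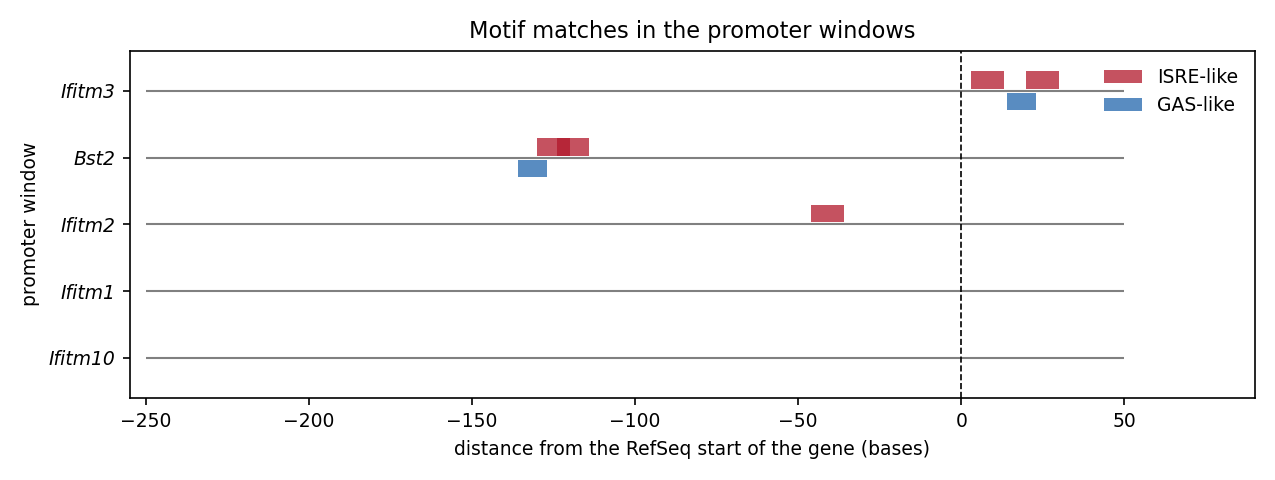
Positions of motif matches in the RefSeq promoter windows of 5 genes. The x axis gives the distance from the RefSeq start in bases, each grey line is a window, red boxes are ISRE-like matches and blue boxes GAS-like matches. Ifitm3 and Bst2 hold 2 ISRE-like matches and 1 GAS-like match each, Ifitm2 holds 1 ISRE-like match, and Ifitm1 and Ifitm10 hold none.

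Before the members, the libraries were checked. Yod1 itself read 1.73, 7.56 and 1.86 FPKM in YOD1 libraries 1, 2 and 3, against 0.842, 0.757 and 0.684 FPKM in control libraries 1, 2 and 3. All YOD1 libraries were above all controls, as in 9.77% of tested genes. YOD1 library 2 stood apart, with 4.36 times the Yod1 level of YOD1 library 1. Yod1 reached 1 FPKM in the 3 YOD1 libraries alone and entered the test through them, so a difference was built into its selection. The difference on the log2(FPKM + 1) scale, 1.21 (SE 0.37), did not pass limma after Benjamini-Hochberg adjustment (adjusted p = 0.141). The ratio of means was 4.88, and the added constant shrinks the difference of so low a gene. The authors' own test, not named in the labels, marks Yod1 significant (log2 fold 2.29, q = 0.031). Whether the introduced YOD1 is the mouse gene is not stated, so Yod1 FPKM may not measure it fully. Genes derived from rRNA took 2.20% to 3.94% of the summed FPKM in YOD1 libraries and 0.448% to 0.772% in controls. Read totals are unknown from FPKM; a rough estimate from the lowest values put relative depth at 0.804 to 0.844 in YOD1 libraries and 0.976 to 1.02 in controls. The part of these differences in the results below was not tested. With rRNA-derived genes left out and the libraries rescaled, 29 genes were called higher, against 51 without that step. Of the 7 genes, 4 were called in both runs, and nothing is read from that, since the same contrast chose them. Of 11 tubular epithelial markers, 10 had at least 1 FPKM in all libraries, among them the epithelial keratin gene Krt18 and the kidney transcription factor gene Pax8, while Cubn, a proximal tubule endocytosis receptor, was at most 0.116 FPKM.

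Ifitm3 (ENSMUSG00000025492), whose protein blocks virus fusion in endosomes, showed the highest level of the 7 genes with YOD1. It read 150, 348 and 226 FPKM in YOD1 libraries 1, 2 and 3, against 40.7, 51.9 and 47.4 FPKM in control libraries 1, 2 and 3. The groups did not overlap, and the lowest YOD1 library was well above the highest control. The means were 241 ± 99.5 FPKM with YOD1 and 46.7 ± 5.68 FPKM in controls (SD, n = 3 each), a ratio of 5.17. On the log2(FPKM + 1) scale the difference was 2.27 (SE 0.26). Ranked by level among the 11483 tested genes, Ifitm3 stood between places 119 and 337 in YOD1 libraries and between places 1170 and 1553 in controls.

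Ifitm2 (ENSMUSG00000060591), a close relative on the same chromosome, was abundant in both groups. It read 123, 113 and 119 FPKM in YOD1 libraries 1, 2 and 3, against 114, 103 and 105 FPKM in control libraries 1, 2 and 3. The groups overlapped, since control library 1 lay above YOD1 library 2. The means were 119 ± 4.94 FPKM with YOD1 and 107 ± 5.92 FPKM in controls (SD, n = 3 each), and the log2 difference of 0.15 (SE 0.12) did not pass the test; it was 0.26 under median-ratio scaling and 0.01 after the length and GC correction. Another gene model, Gm45717, lies over Ifitm5 and Ifitm2 on the same strand in GENCODE M21, so reads could be split between it and Ifitm2 and the level of Ifitm2 is uncertain. Gm45717, chosen after its values were seen, read 53.4, 48.3 and 49.4 FPKM with YOD1 and 47.3, 48.8 and 41.9 FPKM in controls.

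Ifitm1 (ENSMUSG00000025491), the relative that acts at the cell surface, and Ifitm10 (ENSMUSG00000045777) were low in all libraries. Ifitm1 read 0.472, 1.29 and 0.714 FPKM in YOD1 libraries 1, 2 and 3, against 0.120, 0.613 and 0.427 FPKM in control libraries 1, 2 and 3, and the groups overlapped. Ifitm10 read 0.814, 0.677 and 0.758 FPKM with YOD1, against 0.187, 0.346 and 0.865 FPKM in controls. Its highest value was a control. Neither gene reached 1 FPKM in 3 libraries, so neither was tested. Of the remaining family genes, Ifitm5, known from bone-forming cells, read 0.131 to 0.186 FPKM with YOD1 and 0.0564 to 0.286 FPKM in controls. Ifitm6 was at most 0.322 FPKM and Ifitm7 at most 0.0427 FPKM in any library. Ifi27l1 and Ifi27l2b, of the ISG12 family, were not found under these names among the 28789 genes.

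Within the IFITM family, levels were set against each other library by library. For each unit of Ifitm2 there were 1.22, 3.06 and 1.90 units of Ifitm3 in YOD1 libraries 1, 2 and 3, against 0.357, 0.505 and 0.453 in control libraries 1, 2 and 3. Ifitm3 was the more abundant gene in all YOD1 libraries and the less abundant in all controls. The FPKM of Ifitm1, Ifitm2 and Ifitm3 summed to 274, 462 and 345 with YOD1, of which Ifitm3 made up 54.8%, 75.2% and 65.4%. In controls the sum was 155, 155 and 152, and Ifitm3 made up 26.3%, 33.4% and 31.1%. These transcripts resemble each other: in their longest GENCODE M21 transcripts, Ifitm3 and Ifitm2 were 84.9% identical over 358 aligned bases with a longest shared run of 69 bases, and Ifitm3 and Ifitm1 shared a run of 64 bases. The labels do not say how reads that match more than 1 of them were assigned, so the split between relatives is uncertain to that extent.

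Bst2 (ENSMUSG00000046718), the virion tether, read 143, 267 and 178 FPKM in YOD1 libraries 1, 2 and 3, against 75.5, 70.3 and 73.2 FPKM in control libraries 1, 2 and 3. The groups did not overlap, and the controls lay close together. The means were 196 ± 63.6 FPKM with YOD1 and 73.0 ± 2.59 FPKM in controls (SD, n = 3 each), a ratio of 2.69, and the log2 difference was 1.37 (SE 0.20). Set against Ifitm3, Bst2 was the less abundant gene in all YOD1 libraries, at 0.768 to 0.955 times the Ifitm3 level, and the more abundant in all controls, at 1.35 to 1.86 times.

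Ifi27 (ENSMUSG00000064215) read 26.7, 45.6 and 33.1 FPKM in YOD1 libraries 1, 2 and 3, against 9.20, 8.64 and 7.82 FPKM in control libraries 1, 2 and 3. The groups did not overlap. The means were 35.1 ± 9.61 FPKM with YOD1 and 8.55 ± 0.693 FPKM in controls (SD, n = 3 each), a ratio of 4.11, with a log2 difference of 1.89 (SE 0.19). Its neighbour and relative Ifi27l2a (ENSMUSG00000079017) read 2.32, 3.28 and 1.47 FPKM with YOD1, against 0.171, 0.320 and 0 FPKM in control libraries 1, 2 and 3. The groups did not overlap, and control library 3 is listed at 0. Ifi27l2a entered the test through its 3 YOD1 libraries alone, so a difference was built into its selection. Its log2 difference of 1.50 (SE 0.21) depends on the added constant and was 3.38 with 0.1 FPKM added in place of 1. RefSeq draws the gene model of Ifi27l2a around Ifi27, on the opposite strand, and the strand of the libraries is not stated, so reads of the pair cannot be assigned with certainty.

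**Figure D2:**
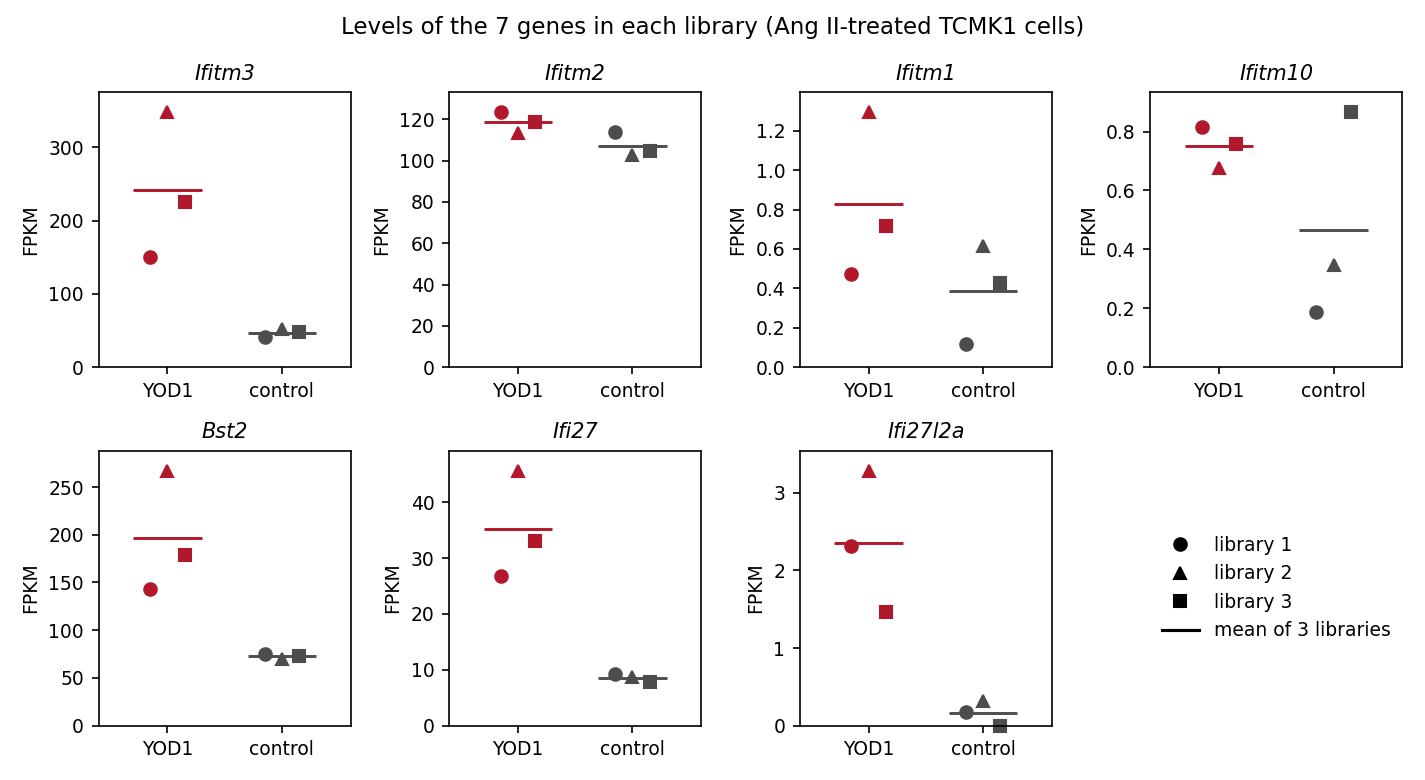
FPKM of each of the 7 genes (y axis, separate scale per panel, starting at 0) in the 3 YOD1 libraries (red, left) and the 3 control libraries (grey, right). Symbols mark libraries 1, 2 and 3 and the line is the group mean; Ifitm3, Bst2, Ifi27 and Ifi27l2a do not overlap between groups, while Ifitm2, Ifitm1 and Ifitm10 do.

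In all, 5 of the 7 genes passed the filter (1 FPKM or more in 3 or more of the 6 libraries), and 4 of them, Ifitm3, Ifi27, Bst2 and Ifi27l2a, were called higher at an adjusted p under 0.05 (limma, Benjamini-Hochberg), with 0 called lower. Over all tested genes, 51 of 11483 (0.444%) were called higher and 4 (0.0348%) lower. The same 4 genes had all YOD1 libraries above all controls, which held for 1122 tested genes (9.77%). Of the 7 genes, 4 carry in the authors' deposited table the mark of significance, as do 0.66% of all listed genes in the higher direction; its q-values are 1.01e-17 for Ifi27, 1.34e-17 for Ifitm3, 6.62e-09 for Bst2 and 0.00051 for Ifi27l2a. The choice of these genes used the same contrast, and nothing is read from these counts. Over all tested genes, 30 were called higher without control library 1 and 17 without control library 2. Bst2 and Ifi27l2a were no longer called in either run, and 2 members remained, Ifitm3 and Ifi27. With a correction for transcript length and GC content the same 2 were called, with log2 differences of 1.24 for Bst2 and 1.34 for Ifi27l2a, against 1.37 and 1.50 without it, and the calls over all genes were 26 higher and 7 lower, against 51 and 4 without it.

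**Figure D3:**
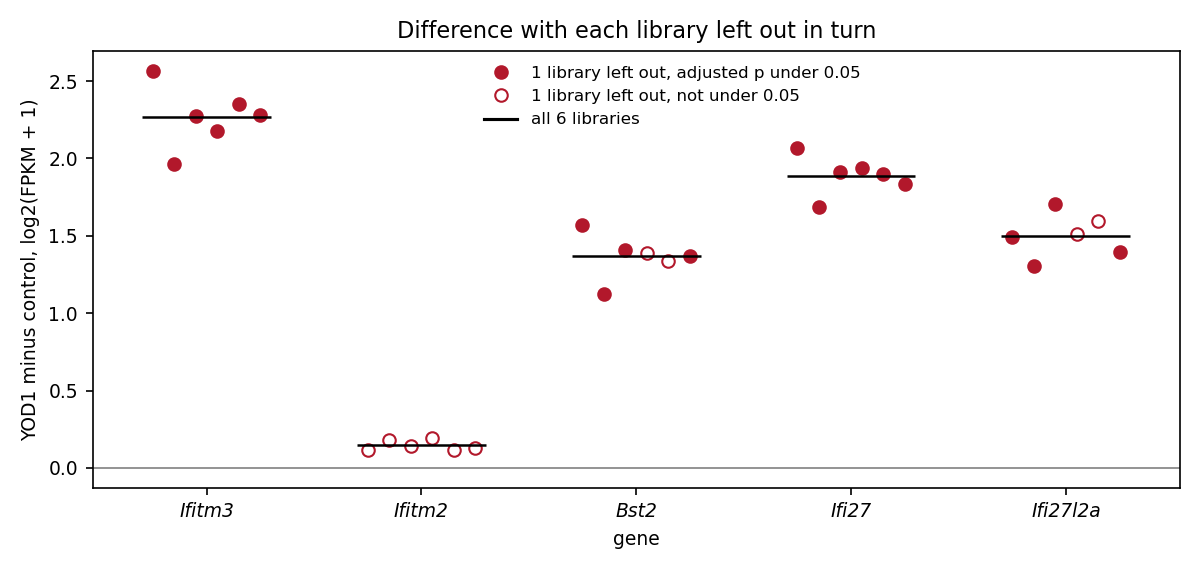
Difference between YOD1 and control libraries (y axis, log2(FPKM + 1)) of the 5 tested genes when 1 library is left out. Points run, from left to right within a gene, through YOD1 1, 2 and 3 and then control 1, 2 and 3 as the library left out; filled points passed an adjusted p of 0.05, open ones did not, and the line is the value with all 6 libraries. Ifitm3 stays between 1.97 and 2.57 and Ifi27 between 1.69 and 2.06; Bst2 and Ifi27l2a have open points without control library 1 and without control library 2.

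In order of level, Ifitm3 and Bst2 came first with YOD1 and overlapped each other. Ifitm2 lay below all their values, Ifi27 and Ifi27l2a came next without overlap, and Ifitm1 and Ifitm10 came last and overlapped. In controls the order was Ifitm2, Bst2, Ifitm3 and then Ifi27, with no overlap between neighbours over the 3 libraries. Ifitm10, Ifitm1 and Ifi27l2a followed there, under 1 FPKM and overlapping. FPKM is a value per transcript length, but the place of Ifitm2 in these orders is uncertain, because reads may be split between it and Gm45717.

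The YOD1 libraries were not alike. Ifitm3, Bst2, Ifi27 and Ifitm1 were highest in YOD1 library 2, next in library 3 and lowest in library 1. Yod1 itself was also highest in library 2, but libraries 1 and 3 were close for it, at 1.73 and 1.86 FPKM. Ifi27l2a was highest in library 2 and lowest in library 3. In total 5 of the 7 genes had their highest value in YOD1 library 2, as had 1382 tested genes (12.0%). Over the control mean, Ifitm3 stood 3.22-fold higher in YOD1 library 1, 7.45-fold in library 2 and 4.84-fold in library 3. Bst2 stood 1.97-fold, 3.66-fold and 2.44-fold higher in the same order, and Ifi27 3.12-fold, 5.33-fold and 3.87-fold. Without YOD1 library 2, 46 of the 11483 tested genes were called higher, among them the same 4 members. The log2 difference was then 1.97 for Ifitm3, 1.12 for Bst2 and 1.69 for Ifi27. The members were chosen for rising in all YOD1 libraries, so nothing is read from these calls.

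The genes that make the interferon response were listed from knowledge of the pathway, but with earlier results of these data known. Of 10 interferon genes, 2 are in the table: Ifnb1 was listed at 0 in all libraries but YOD1 library 3, with 0.281 FPKM, and Ifnl3 at 0 in all but control library 1, with 0.00917 FPKM. Of 14 genes for interferon receptors and their proximal signalling, 13 were tested and 0 called in either direction by limma, with 2 higher and 3 lower at an unadjusted p under 0.05 and a median log2 difference of -0.25, beside -0.10 over all tested genes. Over all tested genes 7.87% were higher and 13.0% lower at that unadjusted p. The median of the list was -0.15 under median-ratio scaling and -0.06 after the length and GC correction. The receptor chains Ifnar1 and Ifnar2 read 8.10 to 15.2 and 11.3 to 13.6 FPKM with YOD1, against 13.1 to 17.1 and 12.4 to 14.5 FPKM in controls. Usp18, which removes ISG15 from proteins and restrains the type I receptor, read 7.84, 55.9 and 8.47 FPKM with YOD1, against 1.12, 1.45 and 1.51 FPKM in controls. Its log2 difference of 2.84 did not pass limma after Benjamini-Hochberg adjustment (adjusted p = 0.0759); under median-ratio scaling, and without YOD1 library 2 or 3, it did. Of 8 tested interferon regulatory factors, with a median log2 difference of 0.02, 3 were higher and 1 lower at an unadjusted limma p under 0.05. All YOD1 libraries were above all controls in 4 and below in 2, beside 9.77% and 19.1% of tested genes. Irf9, counted in both lists, read 9.87, 25.4 and 9.82 FPKM with YOD1, against 4.55, 5.68 and 5.94 FPKM in controls, and was not called. After Benjamini-Hochberg adjustment 1 was called, Irf7, the factor that amplifies type I interferon production. It read 26.9, 93.3 and 38.2 FPKM with YOD1, against 2.73, 3.19 and 3.86 FPKM in controls, and rose by 3.47 on the log2 scale (SE 0.37, limma adjusted p = 0.00534).

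A list of 34 other interferon-induced genes, also drawn up with earlier results of these data known, was set beside the members, and 20 were tested. Of these 20, Lgals3bp alone, a secreted glycoprotein gene, was called higher, at 27.7, 81.8 and 38.5 FPKM with YOD1 and 9.07, 11.2 and 13.1 FPKM in controls (log2 difference 1.92, SE 0.33, limma adjusted p = 0.0432), and that call was lost in 6 alternatives. The number called was 5 under median-ratio scaling, 5 without YOD1 library 1 and 3 without YOD1 library 3, and 0 after the length and GC correction, with rRNA-derived genes left out, with a pseudocount of 0.1, and without control library 1 or 2. The list had 0 calls lower, 14 genes higher at an unadjusted p under 0.05, beside 7.87% of all tested genes, and all YOD1 libraries above all controls in 15 genes, beside 9.77%. Its median log2 difference was 1.37, with 18 of 20 values above 0, beside -0.10 and 36.4% over all tested genes. The median of the 7 members, 1.37, is not a like value, since it includes the untested Ifitm1 and Ifitm10. The members were also chosen by this contrast, so nothing is read from the 2 medians. Of the 20, Rtp4, Zbp1 and Xaf1 entered the test through their YOD1 libraries alone, so a difference was built into their selection, and the other 17 had a median of 1.27 with 15 values above 0. Without YOD1 library 2 the median of the list was 0.86, with 15 values above 0 and 6 genes called.

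The list leaned on YOD1 library 2 in a way that can be set beside the members. All 20 tested genes of the list had their highest value there, and the median gene had 3.36 times its level in YOD1 library 1 and 3.50 times its level in YOD1 library 3. Ifitm3 had 2.31 and 1.54 times, Bst2 1.86 and 1.50 times, and Ifi27 1.71 and 1.38 times. In YOD1 libraries 1, 2 and 3 the median difference of the list from the control mean was 0.73, 2.45 and 1.03 on the log2(FPKM + 1) scale. That of Ifitm3 was 1.67, 2.88 and 2.26, that of Bst2 0.97, 1.86 and 1.28, and that of Ifi27 1.54, 2.29 and 1.84. These are values side by side, and no test of the members against the list was made. Ifitm3, Bst2 and Ifi27 were chosen for standing higher in all YOD1 libraries. That choice favours genes that rise in each library, so nothing is read from the comparison. Among tested genes of the list with a promoter window, 7 of 15 held an ISRE-like match and 4 of 15 a GAS-like match. Among all tested genes with a window these shares were 3.32% and 7.96%.

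**Figure D4:**
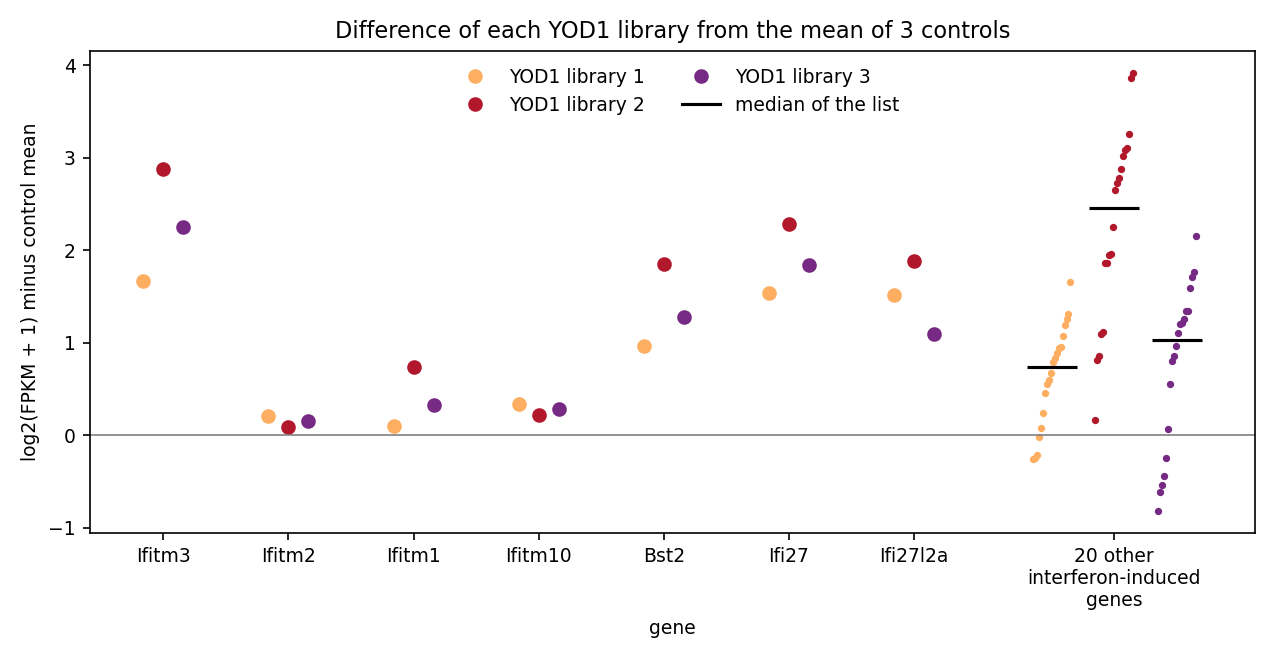
Difference of each YOD1 library from the mean of the 3 controls (y axis, log2(FPKM + 1)) for the 7 genes and for 20 other interferon-induced genes, with colours for YOD1 libraries 1, 2 and 3 and black lines for the medians of the list (0.73, 2.45 and 1.03). Each small point is 1 gene of the list, sorted by value.

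Genes that work with the members did not pass the test. Of 7 genes for partners and modifiers of IFITM3, 0 were called in either direction by limma, with 0 higher and 2 lower at an unadjusted p under 0.05. All 7 had log2 differences below 0, from -0.80 to -0.20 with a median of -0.32, except that after the length and GC correction 1 was above 0, the lowest was -0.54 and the median was -0.14. In 5 of the 7, all YOD1 libraries were below all controls, as in 19.1% of tested genes. Nedd4, the ubiquitin ligase that marks IFITM3 for breakdown, read 19.7, 24.1 and 11.3 FPKM with YOD1, against 33.7, 31.5 and 28.7 FPKM in controls (log2 difference -0.80, limma adjusted p = 0.130). Vcp, the ATPase that draws ubiquitinated proteins from membranes and complexes, read 34.8, 33.1 and 25.4 FPKM with YOD1, against 43.7, 39.1 and 53.7 FPKM in controls (-0.54, limma adjusted p = 0.140).

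For Bst2, the 5 genes of the enzyme that attaches GPI anchors gave 0 calls in either direction, 0 at an unadjusted p under 0.05, and a median log2 difference of -0.11 that was 0.03 after the length and GC correction. For Ifi27, the nuclear receptor gene Nr4a1 and the ubiquitin ligase gene Skp2, whose proteins have been described as partners of ISG12 proteins in mouse or human cells, had log2 differences of -0.72 and -0.24 and were not called, except that Nr4a1 was called lower without control library 3 (-1.01). Of 7 genes for tetraspanins and lysosomal membrane proteins, which share compartments with IFITM proteins, 0 were called, 0 higher and 2 lower at an unadjusted p under 0.05, with a median of -0.09 (0.01 under median-ratio scaling). Other antiviral genes that act at membranes had 5 tested and 0 called by limma, and 0 at an unadjusted p under 0.05, with a median log2 difference of -0.23 that was 0.0066 after the length and GC correction. The most abundant of them, Ly6e, a GPI-anchored protein that restricts coronavirus entry, read 259, 352 and 347 FPKM with YOD1 and 235, 301 and 279 FPKM in controls.

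Neighbouring genes were taken in the order of the RefSeq table, 3 tested genes on each side. Beside Ifitm3 on chromosome 7, Gm15542, Pgghg, B4galnt4, Pkp3 and Sigirr had log2 differences of -0.43, -0.19, 0.10, -0.02 and 0.09. Beside Bst2 on chromosome 8, Ano8, Gtpbp3, Plvap, Mvb12a, Tmem221 and Slc27a1 had log2 differences of -0.09, 0.46, 0.51, 0.58, -0.07 and -0.45. The product of Mvb12a is a subunit of the ESCRT-I sorting complex. Gtpbp3, Plvap and Mvb12a had all YOD1 libraries above all controls, and Slc27a1 had all below. Over all tested genes these shares were 9.77% and 19.1%. Beside Ifi27 on chromosome 12, Ifi27l2a is a member. The next tested gene after the pair in this order was Serpina3n, an acute-phase serine protease inhibitor gene. Serpina3n read 2.44, 5.11 and 4.77 FPKM with YOD1 and 0.446, 2.08 and 2.32 FPKM in controls (log2 difference 1.01, limma adjusted p = 0.153). Otub2, Ddx24, Dicer1 and Clmn had log2 differences of 0.52, 0.06, -0.29 and -0.09. Serpina3n and Otub2 had all YOD1 libraries above all controls, and Dicer1 had all below. None of the neighbours outside the 7 genes was called by limma.

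**Figure D5:**
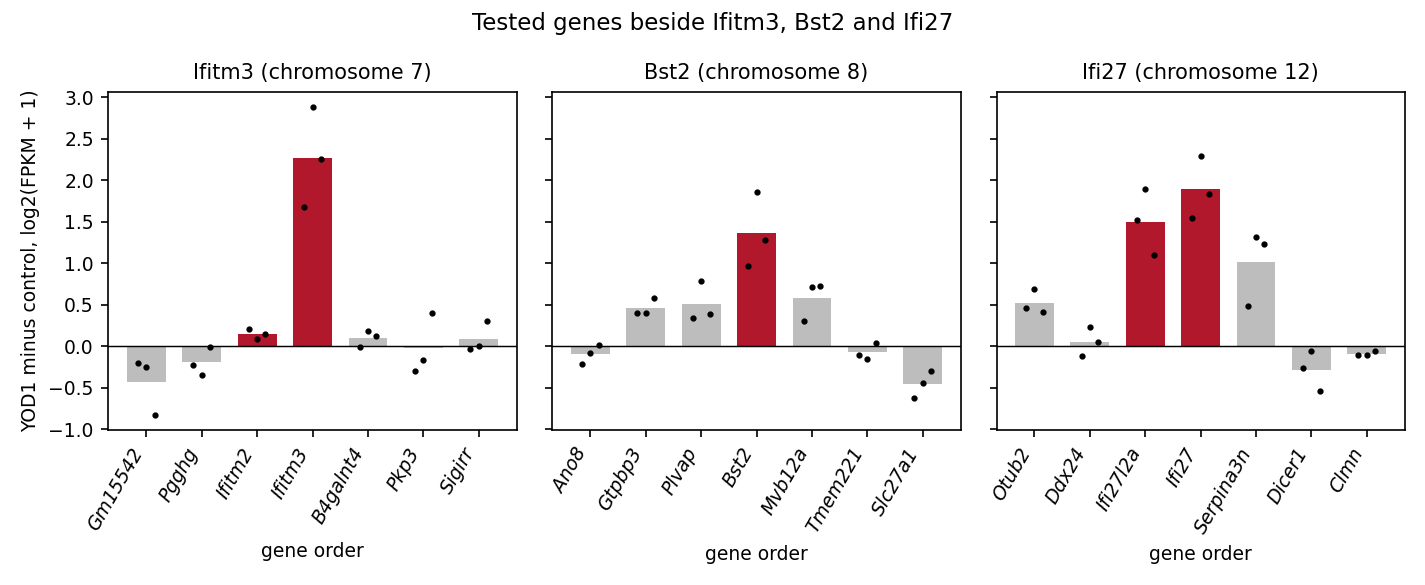
Difference between YOD1 and control libraries (y axis, log2(FPKM + 1)) of tested genes in RefSeq order around Ifitm3, Bst2 and Ifi27 (3 on each side). Bars are means, points are the 3 YOD1 libraries less the control mean, and red bars are the genes of the set. Ifitm2, the nearest tested gene on its side of Ifitm3, has 0.15, against 2.27 for Ifitm3. The untested Ifitm1 lies between them.

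The genes whose pattern over the 6 libraries came nearest to that of a member were ranked by the root mean square difference of centred log2(FPKM + 1) values, over genes of other families. For Ifitm3 the nearest was ENSMUSG00002076173, a gene with no symbol in the table, at 0.21, followed by Lgals3bp at 0.24, Oas1a at 0.25, Oas1g at 0.27 and the complement factor gene Cfb at 0.31, against a median of 1.25 over tested genes. For Bst2 it was Ifi35 at 0.0727, then the class Ib histocompatibility gene H2-T23 at 0.15, the mitochondrial leucyl-tRNA synthetase gene Lars2 at 0.18, and Slamf9 and Cebpd at 0.19 each, against a median of 0.80. For Ifi27 the order was Cfb at 0.18, H2-T23 at 0.20, the serum amyloid gene Saa3 at 0.23, Lars2 at 0.27 and Cebpd at 0.28, against a median of 1.04. Ifi35 read 30.8, 68.1 and 41.6 FPKM with YOD1 and 17.2, 16.9 and 16.4 FPKM in controls. Slamf9 entered the test through its YOD1 libraries alone, so a difference was built into its selection. Likeness over 6 libraries is a description.

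Markers of other cell types were also summed. Of 6 leukocyte markers in the table, 2 were tested and 0 called, and their summed level was 17.3 to 19.8 FPKM with YOD1 and 17.8 to 27.4 FPKM in controls, nearly all from Cd68 and Csf1r; the pan-leukocyte gene Ptprc was at most 0.0708 FPKM with YOD1 and 0.0332 FPKM in controls. The 3 markers of plasmacytoid dendritic cells, a cell type known for high Bst2 in mice, summed to 0.228 to 0.566 FPKM with YOD1 and 0.0349 to 0.528 FPKM in controls. The 3 endothelial markers summed to 0.974 to 1.77 FPKM with YOD1 and 0.520 to 1.13 FPKM in controls. The 4 fibroblast markers summed to 5.68 to 12.2 FPKM with YOD1 and 10.9 to 13.6 FPKM in controls. The part of such cells in the levels of the 7 genes was not tested.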

How the data were processed

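The labels' protocols describe poly(A) RNA of 6 TCMK1 libraries and paired-end Illumina sequencing. The authors deposited 1 table of FPKM by gene and library. Per the file headers, it also holds their fold ratio, log2 fold, p-value and q-value for each gene; their test is not named in the labels. Tools in the submitters' processing notes are Bowtie 0.12.2, StringTie 1.3.0 and HISAT2 2.0; the build named there is mm8. Groups came from the sample titles.

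No counts were used here, so limma 3.58.1 (R 4.3.3) was run on log2(FPKM + 1), with an intensity trend, two-sided, over the 11483 genes that reached 1 FPKM in 3 or more of the 6 libraries, and Benjamini-Hochberg adjustment at 0.05. Differences on this scale understate the change of low genes. Alternatives were other scalings, a length and GC correction, a pseudocount of 0.1, other filters, a fold threshold, a replicate block and leaving out each library. The members and gene lists were chosen with earlier results of these data known. Named genes were the members and their families, Yod1, called list genes or else the most abundant 4 of a list, the nearest 5 patterns and 3 neighbours a side; Gm45717, Ptprc, Cubn, Ifi35 values and further examples were added after their values were seen.

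Promoters came from the RefSeq table (GRCm38.p6) and transcript lengths, GC and similarity (Biopython 1.88) from GENCODE M21, which held 27305 of the 28789 gene identifiers; 99.2% of tested genes had length and GC. Both belong to another build than the mm8 named in the processing notes and were joined by name or identifier only. The deposited gene identifiers include ones of newer annotations than mm8, so the build behind the FPKM values is uncertain. Replicate numbers were not treated as pairs: same-numbered libraries had deviations correlated at 0.30, -0.12 and -0.11. Library pairs shared at most 6 identical values above 0. Computation used Python 3.11.15, numpy 2.4.6, pandas 2.3.3 and matplotlib 3.10.9.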

Additional observations from a re-analysis of the deposited data

How the results depend on the processing

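Against 51 genes called higher, 4 lower and 4 of the 7 members higher, median-ratio scaling gave 162 and 9, leaving out rRNA-derived genes gave 29 higher, and the correction for length and GC gave 26 and 7 with 2 members. With no filter, limma called 0 genes higher, 0 lower and 0 members, while 3427 of 28789 genes and 4 members had an unadjusted p under 0.05. An added log2 threshold of 1 gave 2 lower. The replicate block gave 33 and 8, with 4 members and 2 of the 20 other interferon-induced genes; the numbers are not known to pair libraries. Leaving out each library gave 17 to 145 higher, 1 to 97 lower and 2 to 4 members, the highest counts without control library 3 and the fewest higher calls without control library 2. Without YOD1 library 3 there were 107 and 25. With a pseudocount of 0.1 the members called were 4, and with a filter at 5 FPKM 3, since Ifi27l2a was not tested there. No difference of a called member changed sign in any alternative run. The log2 difference of Ifitm2, 0.15, was 0.26 under median-ratio scaling, 0.01 after the length and GC correction, and 0.12 to 0.19 over single libraries left out; that of Ifi27l2a ran from 1.31 to 1.71 over the same. Of 33 genes named from the lists, 4 values gained a call and 7 lost one, with 413 on the same side; Irf7 was lost with no filter. Depth is unknown, so values under 1 FPKM carry no stated precision. The cause of these shifts was not tested.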
